A study of Mus musculus with 4 samples.

Results

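The sites described here are the called m6A sites that the deposited tables place in introns, in macrophages grown from the bone marrow of 2 wild-type mice. They were chosen by annotation alone: every row labelled "Distal intron" or "Proximal intron", with or without an ncRNA suffix, was a member. That gave 1147 of 45668 called sites in mouse 1 (2.51%) and 1130 of 47747 in mouse 2 (2.37%). All cells of both mice had received lipopolysaccharide (LPS), the bacterial outer membrane component sensed by Toll-like receptor 4, for 3 h, so there was no untreated group. Each mouse gave 1 library of RNA captured by the m6A antibody (IP) and 1 input library, 4 libraries in all. The labels state no age, sex or strain of the mice, and they do not explain the term NTC in the names of the tables. RNA was selected on oligo(dT) before the antibody step, per the labels' protocols, so the sites were read from polyadenylated RNA. Each row is 1 nucleotide on 1 strand of mm10. Its score and its fold, the ratio of read starts in the IP to read starts in the input, are the authors' own values and are used here to describe and rank sites within a list. The tables give no read numbers, so depth is unknown and the fold of a single site has no error. Intervals below are exact (Clopper-Pearson) 95% intervals on shares of sites. They cover counting error only, and neighbouring sites of 1 transcript are not independent.

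N6-methyladenosine is placed on adenosines of nascent transcripts in the nucleus by a complex of METTL3, METTL14 and partner proteins. It is best known from coding sequences and 3' UTRs near the stop codon. Introns are transcribed with the rest of the gene and mostly removed before export, although some stay in polyadenylated RNA as retained or detained introns. A label of "intron" also depends on which transcript of a gene an annotation uses, since one isoform's intron can hold another isoform's exon, start or last exon. The known sequence context of m6A is named DRACH: A, G or T, then A or G, then the methylated A, then C, then A, C or T. A related mark, m6Am, sits on the first nucleotide of many capped transcripts and is bound by m6A antibodies too.

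Sequences could be read only where a site lay inside a promoter window of RefSeq (GRCm38.p6, 250 bases before to 50 after a gene start). Windows of genes on either strand were used and held 148 intronic sites of mouse 1 (12.9%) and 152 of mouse 2 (13.5%). Of 87 such sites with an intron label in both tables and 1 gene name, 9 had the consensus centred on the called base. The 6 strongest of these with a fold of at least 8 in both mice are shown first, with the 5 letters of the consensus in capitals and 10 bases on either side of the site, read 5′ to 3′ on the strand of the RNA.
Rbbp6 chr7:122970540-122970560, plus strand: acggagagAGACTagccggga
Rbbp6 chr7:122970471-122970491, plus strand: ccgctcgtGGACTccgggcct
Acin1 chr14:54650529-54650549, minus strand: cctgtcagAGACTgtgggttg
Acin1 chr14:54650503-54650523, minus strand: tttgctacAGACTgttgggat
Mid1 chrX:169979138-169979158, plus strand: acaaaaaaGGACTcaaagaag
Cd47 chr16:49855507-49855527, plus strand: agccccggGGACAggctgatt

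The pair in Rbbp6, which encodes a RING finger protein that binds p53 and RB1, had folds of 69.2 in mouse 1 and 31.8 in mouse 2 at 14 bases before a RefSeq start of the gene, and of 34.1 and 36.6 at 83 bases before it. The Acin1 pair lay 3146 and 3172 bases after the nearest RefSeq start of that gene, a component of splicing-associated complexes, with folds of 11.03 and 31.8 at the former and 10.5 and 19.3 at the latter. The site of Mid1, a microtubule-associated ubiquitin ligase, had folds of 10.5 and 26.0 and lay 99529 bases after the nearest RefSeq start of its strand. The site of Cd47, the surface signal that restrains phagocytosis, had folds of 10.4 and 25.04. In all 6 the fold was at least 8 in either mouse, as the choice of sites required.

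A second set is shown because its sites sat on the first base of a RefSeq transcript although the tables called them intronic. Of the 87 sites, 9 lay exactly at a gene start and 9 of the 9 had a C before the called A. The 6 of them with the highest mean fold follow, with that C and the site in capitals.
Spg7 chr8:123065498-123065518, plus strand: cgcactgcgCAggcgccgctt
Dst chr1:34011585-34011605, plus strand: gagatgccgCAgaagcgcggc
Brox chr1:183296998-183297018, minus strand: gctctagctCAgttatctcgg
Mctp1 chr13:76579587-76579607, plus strand: tcctactttCActctaagtct
Lsm14a chr7:34389695-34389715, minus strand: ccctcccggCAtgccctgcgc
Arhgef7 chr8:11779274-11779294, plus strand: gaagcttccCAtatttcacat

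These sites were chosen with no limit on the fold. Spg7, a mitochondrial protease subunit, had 9.28 in mouse 1 and 24.1 in mouse 2. Dst, a large cytoskeletal linker, had 16.05 and 9.63, and Brox, a nuclear envelope protein of the ESCRT system, had 10.5 and 14.4. The remaining sites were below 8 in at least 1 mouse: Mctp1 with 7.52 and 14.4, Lsm14a, a processing body protein, with 7.52 and 10.6, and Arhgef7 with 7.69 and 4.33. Of the 9 sites at a start, 3 reached 8 in both mice.

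The strongest windows that hold neither feature are shown for contrast, with the base before the site, the site and the base after it in capitals.
Csrnp1 chr9:119983731-119983751, minus strand: ccggacgcgCAGacctgggcc
Herc6 chr6:57580998-57581018, plus strand: ctgacatacCAGagccgcggg
Galnt2l chr8:122611624-122611644, plus strand: acatcgggtCACatgatgtgg
Ppp1r10 chr17:35916976-35916996, plus strand: ggcggccgcCATtctggggtt

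Each of these 4 also had a C before the A. Folds were 78.4 and 34.7 for Csrnp1, whose site lay 38 bases after a RefSeq start of the gene, and 80.2 and 23.9 for Herc6, an interferon-induced HECT ligase family member, 16 bases after its start. The site listed under Galnt2l had folds of 39.8 and 44.8 and lay 8 bases after the RefSeq start of a different gene, Trappc2l, a subunit of a vesicle tethering complex. The site of Ppp1r10, a nuclear regulator of protein phosphatase 1, had folds of 22.4 and 71.3 and lay 210 bases before its start.

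Over all intronic sites with a window, the called base was A in 148 of 148 in mouse 1 and 152 of 152 in mouse 2. The same held for the other called sites with a window, 4969 of 4969 and 5153 of 5153. The consensus was centred on 13 intronic sites of mouse 1 (8.78%, 4.76% to 14.6%) and 10 of mouse 2 (6.58%, 3.20% to 11.8%). It was searched on the RNA strand as 18 sequences of 5 letters, overlaps allowed. For comparison, 7.73% of all A in the 32851 windows were centred in the consensus, and 98.4% of windows held it somewhere. A C stood before the A in 68.2% of intronic sites in mouse 1 (60.1% to 75.6%) and 70.4% in mouse 2 (62.5% to 77.5%), against 61.1% and 60.4% of the other called sites in windows and 29.4% of all A in them. A C after the A, which the consensus needs, was found in 18.9% and 19.7%, near the 20.8% of all A.

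The consensus was found more often away from gene starts of the site's own strand. Within 50 bases of such a start it was centred on 4 of 112 intronic sites in mouse 1 (3.57%) and 2 of 113 in mouse 2 (1.77%). Farther away it was centred on 9 of 36 (interval 12.1% to 42.2%) and 8 of 39 (interval 9.30% to 36.5%), and the shares among the coding sequence sites that lay in windows, 25.7% and 28.3%, fell within those intervals. The sites farther away include some in windows of genes on the opposite strand, such as those of Acin1 and Mid1 shown above. These windows cover promoters, and most intronic sites lie outside them. The shares therefore describe sites near gene starts of either strand and not introns in general.

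The next question was how often the deposited fold of an intronic call was high. A site was taken as enriched where its fold reached 8 (3 on the log2 scale). In mouse 1, 844 intronic sites passed (73.6%, 70.9% to 76.1%), where 81.7% of all called sites passed. In mouse 2, 795 passed (70.4%, 67.6% to 73.0%), where 79.1% of all called sites passed. The median fold was 11.03 in mouse 1 and 11.6 in mouse 2, against 15.0 and 14.8 for the other called sites. Set against the other called sites, the intronic share differed by -8.38 percentage points in mouse 1 and -8.95 in mouse 2. An exact sign-flip permutation test over 2 mice cannot go below a two-sided p of 0.5, so none was run. The order of the mice depended on a constant in each table. A ratio of exactly 8 was written as 8.02 in mouse 1 and 7.70 in mouse 2, so the 71 intronic sites at that ratio in mouse 1 passed and the 46 in mouse 2 did not. With the limit set before the constant, 842 sites of mouse 2 passed (74.5%). Folds were whole multiples of the constant at 65.3% of intronic sites in mouse 1 and 65.1% in mouse 2. Over all called sites the figures were 62.1% and 62.0%. Why so many folds are whole multiples was not tested. Without read numbers, a fold under 8 cannot be told apart from low coverage of the site.

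Distal and proximal labels, which in such annotations stand for positions deep in an intron and near its ends and are not defined in the tables, gave like shares. Distal sites numbered 849 in mouse 1 and 859 in mouse 2, and 74.0% and 70.8% were enriched. Proximal sites numbered 298 and 271, and 72.5% and 69.0% were enriched, with intervals that overlapped those of the distal sites. Sites with the ncRNA suffix, 147 and 148, had 72.1% and 71.6%. At a log2 fold of 4 or more the distal share was the higher in both mice: 36.4% of distal against 28.5% of proximal sites in mouse 1, and 38.4% against 24.4% in mouse 2. No intervals were formed at that limit. By comparison, coding sequence sites passed the limit of 8 in 87.7% of cases in mouse 1 and sites in 5' UTRs in 64.7%, so the intronic share lay between them. Sites labelled 3' splice site, at the edge of introns and no members here, passed in 23.3% in mouse 1.

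**Figure D1:**
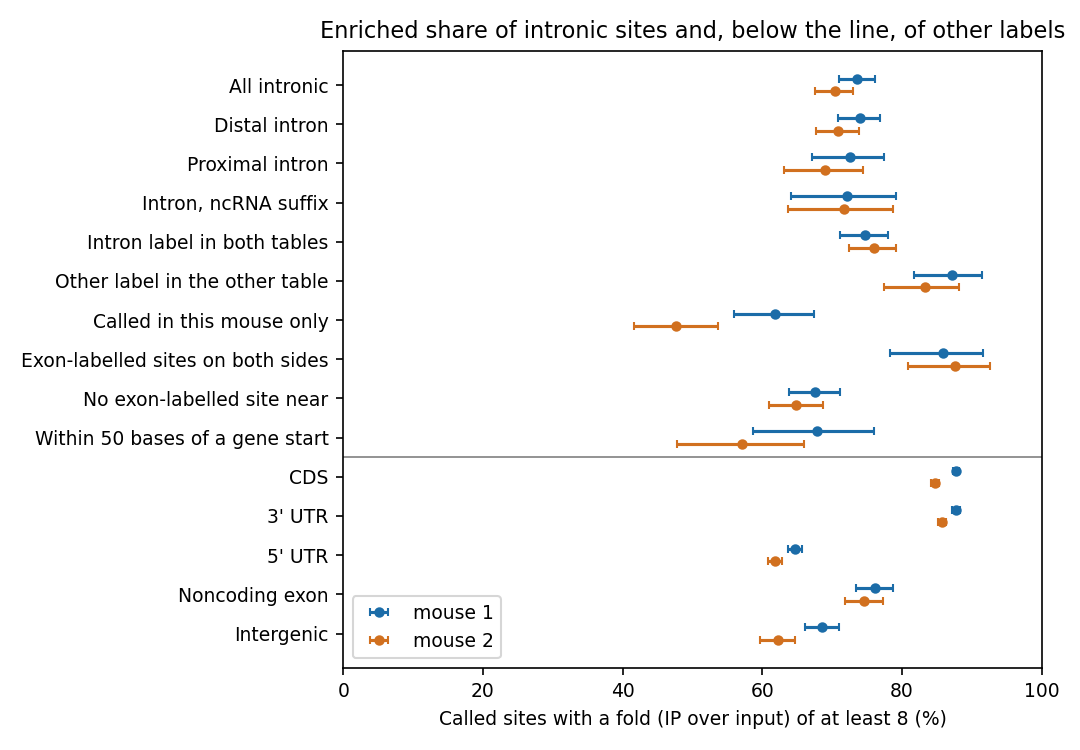
Share of called sites with a fold of at least 8 (horizontal axis, percent) for intronic sites and their subgroups, and, below the line, for other labels, in mouse 1 (blue) and mouse 2 (orange). Points are shares and bars exact 95% intervals. Intronic sites stood at 73.6% and 70.4%, between coding sequence and 5' UTR sites, and sites called in 1 mouse only stood lowest among the intronic subgroups of mouse 2 (47.6%).

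Both animals can be set against each other site by site. Of the intronic sites of mouse 1, 854 (74.5%) were called in mouse 2 at the same nucleotide and strand under any label. In the reverse direction 855 (75.7%) were called in mouse 1. The other called sites were shared in 83.6% and 79.9% of cases. Shared intronic sites had higher scores: the median score was 31.8 in mouse 1 and 33.8 in mouse 2, against 14.7 and 14.0 for intronic sites called in 1 mouse only. Of those called in 1 mouse only, 61.8% of 293 in mouse 1 and 47.6% of 275 in mouse 2 were enriched. The other called sites showed like gaps. Their median scores were 36.8 and 38.7 where shared, against 15.1 and 16.2 where called in 1 mouse only. Of the other sites called in 1 mouse only, 66.4% and 59.8% were enriched.

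An intron label in both tables was held by 652 nucleotides. Of these, 413 were enriched in both mice (63.3%, 59.5% to 67.1%), where 76.9% of all sites called in both mice were. In mouse 1 alone 74 passed, in mouse 2 alone 82 and in neither 83. Over the 652 sites, log2 folds of the mice correlated with Pearson's r of 0.71 and a Spearman coefficient of 0.65, as a description across sites that share the libraries of each animal. The median absolute difference was 0.57 on the log2 scale. For sites with no intron label the values were 0.74, 0.70 and 0.56, so the spread between the animals was of like size. The 413 sites lay in 263 genes with a single name. Of them, 289 were distal in both tables, 122 proximal in both, and 45 carried the ncRNA suffix in both. Just inside the limit were the site of Tle6, a transducin-like corepressor family member, with 8.02 and 10.6, and that of Bptf, a subunit of a chromatin remodeller, with 8.02 and 9.63. Just outside it were that of Ndufb2, a subunit of respiratory complex I, with 8.90 and 7.99, and that of Bax, which promotes apoptosis, with 7.95 and 8.16. The 413 sites made up 48.9% of the enriched intronic sites in the list of mouse 1 and 51.9% in that of mouse 2.

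**Figure D2:**
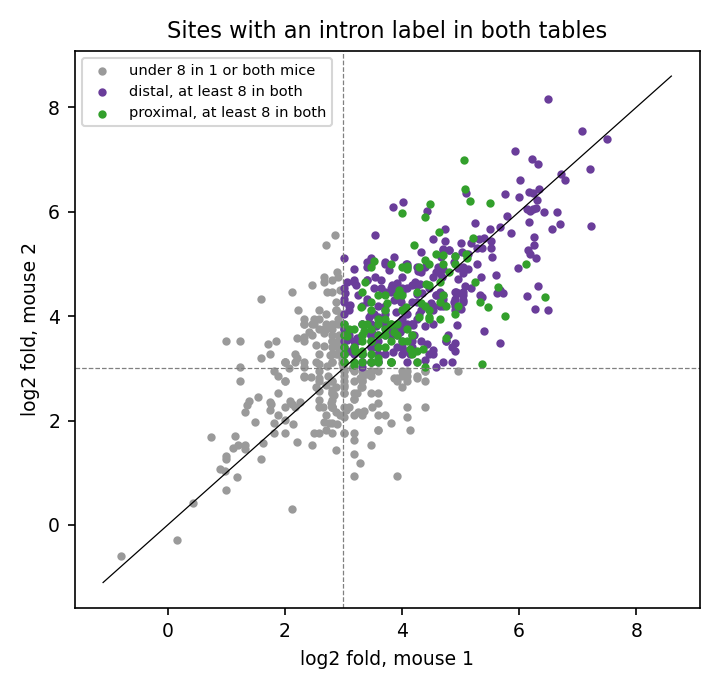
Log2 fold of IP over input in mouse 1 (horizontal) and mouse 2 (vertical) at the 652 sites with an intron label in both tables. Dashed lines mark a fold of 8, the solid line equality; purple points are distal and green points proximal sites at or above 8 in both mice, grey points all others. The points scatter about the line of equality with r of 0.71, and the highest point on each axis is distal.

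The label itself differed between the tables. Of the 854 intronic sites of mouse 1 called in both mice, 202 bore another label at the same nucleotide in the table of mouse 2, and 203 of the 855 of mouse 2 did so in that of mouse 1. An intron label was therefore met by an intron label in only 76.3% of cases in either direction. For coding sequence the figure was 99.0% and 98.9%, for 3' UTRs 99.3% and 99.2%, for 5' UTRs 98.9% and 99.3%, and for noncoding exons 90.2% and 91.2%. The 405 nucleotides with an intron label in 1 table only were for the most part exonic in the other. Intronic sites of mouse 1 were labelled coding sequence in mouse 2 at 105 nucleotides, 3' UTR at 57, 5' UTR at 27, noncoding exon at 11 and 3' splice site at 2. In the reverse direction the counts were 90, 62, 40, 9 and 2. The gene named was the same at 402 of the 405, so the tables differed in the part of the gene and not in the gene. Why 2 tables of the same study label a nucleotide differently was not tested.

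**Figure D3:**
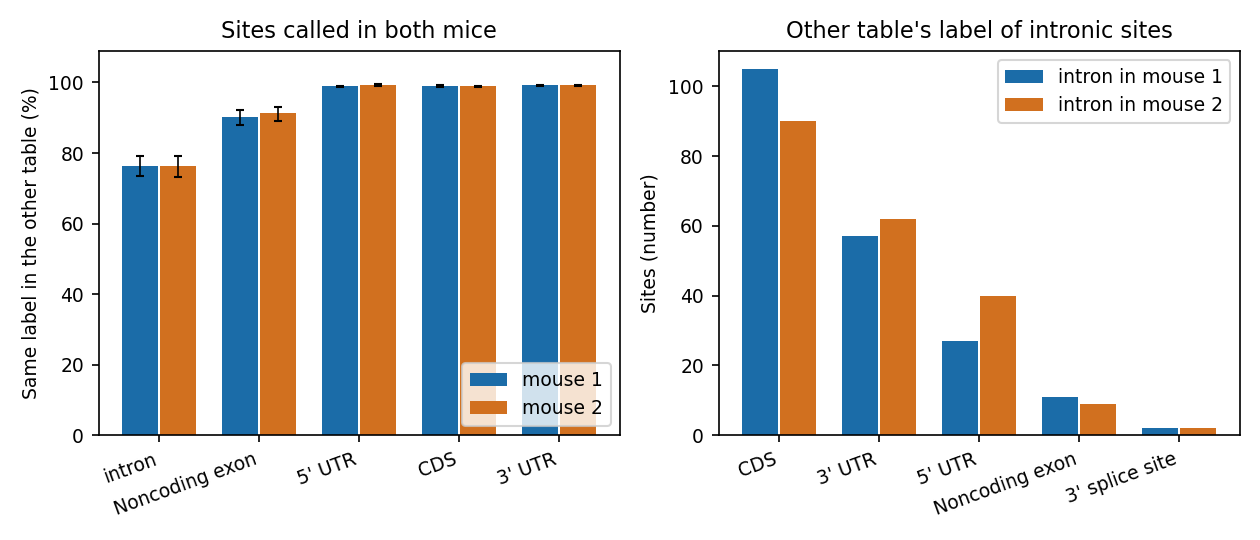
Left, share of sites called in both mice whose label was the same in the other table (percent, bars with exact 95% intervals), by label and mouse. Right, number of intronic sites of each mouse by the other table's label. The intron label was kept in 76.3% of cases, against 98.9% to 99.3% for coding sequence and UTRs, and coding sequence was the most frequent other label, at 105 and 90 sites.

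These 405 sites were the stronger part. In both mice 318 of them were enriched (78.5%, 74.2% to 82.4%), near the 76.9% of all sites called in both mice and above the 63.3% of sites that were intronic in both tables. They came from 165 gene names. Cenpb, which encodes a protein bound to centromeric satellite DNA, had 12 such sites, of which 10 were enriched in both mice, beside 3 sites that were intronic in both tables. The zinc finger gene Zbtb22 had 12, with 10 enriched in both, and Nup62, a nuclear pore protein, had 12, with 11 enriched. Csrnp1 had 10, with 9 enriched in both. Rnf139, an endoplasmic reticulum ubiquitin ligase, had 10, with 7 enriched, and the interferon-inducible GTPase gene Igtp had 8, with 7 enriched. In each of these genes both tables contributed intron labels, for example 5 in mouse 1 and 7 in mouse 2 for Cenpb and 6 each for Nup62.

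Sites of the same gene around an intronic site were looked at next. In mouse 1, 120 intronic sites had exon-labelled called sites of their gene within 500 bases on both sides, 365 on 1 side and 662 on neither. In mouse 2 the counts were 137, 375 and 618. Sites with exon-labelled sites on both sides were enriched in 85.8% (78.3% to 91.5%) and 87.6% (80.9% to 92.6%), with median folds of 25.3 and 20.2. Sites with none near were enriched in 67.5% (63.8% to 71.1%) and 64.9% (61.0% to 68.7%), with medians of 10.03 and 10.6. The intervals of these 2 strata did not overlap in either mouse. Sites with such neighbours on 1 side lay between them at 80.5% (76.1% to 84.5%) and 73.1% (68.3% to 77.5%), overlapping the former in mouse 1 and the latter in mouse 2. All these intervals treat sites as independent, although sites with near neighbours share a gene. Their overlap or lack of it is therefore descriptive only. Like strata of the other called sites were not formed, so the pattern cannot be called particular to intronic sites.

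Along the gene, intronic sites were spread widely. For those inside the RefSeq span of their gene, the median position was 54.5% of the gene's length in mouse 1 and 55.5% in mouse 2, with the middle 50% of sites between 16.96% and 83.8% in mouse 1. Within 3 kb of the gene end lay 33.5% and 33.9% of intronic sites, 36.9% and 38.8% of distal ones and 24.7% and 19.6% of proximal ones. The figure for 3' UTR sites was 83.8% and 83.5%, and for coding sequence 40.9% and 41.1%.

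Distance from gene starts was measured next. Of the 1099 and 1077 on chromosomes that the promoter table covers, 121 in each mouse lay within 50 bases of a RefSeq gene start of their strand (11.0%, 9.22% to 13.0%, and 11.2%, 9.41% to 13.3%). Exactly at the start lay 20 and 18, and within 5 bases 35 and 38. The nearest start belonged to the gene named beside the site at 107 of 121 sites in mouse 1 and 108 of 121 in mouse 2. Over all other called sites the share within 50 bases was like this, 10.7% and 10.6%. For 5' UTR sites it was 46.4% and 47.0%, for coding sequence 0.584% and 0.554%. Near a start 67.8% of intronic sites were enriched in mouse 1 and 57.0% in mouse 2, and farther away 75.1% and 72.4%. The other called sites also had a lower share near a start, 64.4% and 61.7%, than farther away, 84.0% and 81.4%. Start sites shown above, such as those of Spg7, Dst and Brox, belong to this group.

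**Figure D4:**
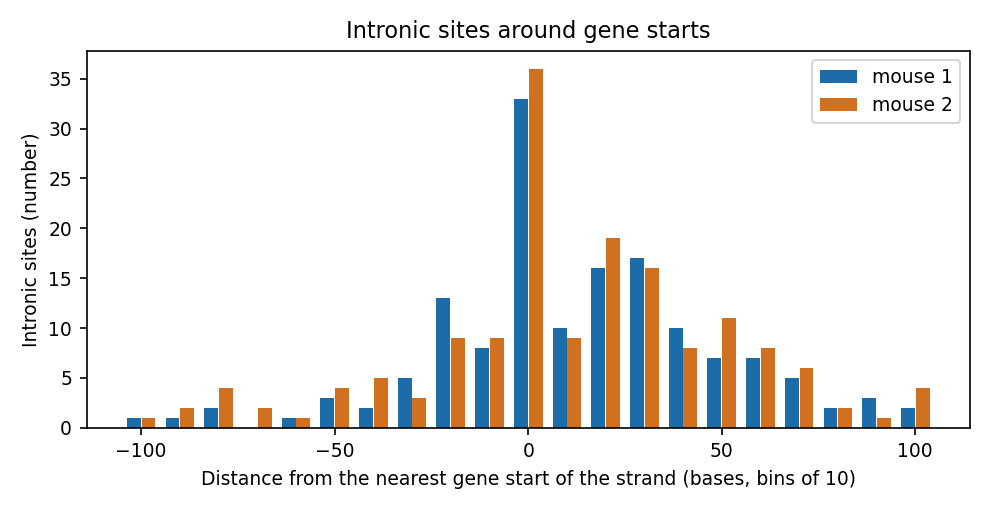
Number of intronic sites (vertical axis) by distance from the nearest RefSeq gene start of the same strand (horizontal axis, bins of 10 bases, downstream positive) in mouse 1 and mouse 2. The bin around the start held the most sites, 33 and 36, and a second, lower rise followed 20 to 30 bases downstream.

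Some intronic sites lay over a second gene. In mouse 1, 122 of 1083 intronic sites with 1 gene name (11.3%, 9.44% to 13.3%) and in mouse 2, 97 of 1056 (9.19%, 7.51% to 11.1%) fell inside the RefSeq span of another gene of the same strand, and 77.9% and 86.6% of these were enriched. Reads of such sites cannot be divided between the overlapping genes. All 3 sites listed under Pip5k1b, which makes the phosphoinositide PIP2, lay 19, 1073 and 1108 bases after the RefSeq start of Fam122a, and their folds were 21.6 and 64.5, 76.2 and 45.7, and 53.2 and 21.8. The 11 intronic sites of Nup62 in each mouse that overlapped Il4i1b had folds from 7.02 to 273 in mouse 1 and from 8.91 to 156 in mouse 2. Intronic sites listed under Rbm12, an RNA-binding protein gene that overlaps Cpne1, numbered 9 in mouse 1, all enriched, with folds from 8.02 to 45.1. Of the Rbm12 nucleotides called in both mice, 6 were intronic in mouse 1 only and 1 was intronic in both tables. Intronic sites of Ugt1a7c, a drug-conjugating glucuronosyltransferase, numbered 9 in each mouse, within the spans of Ugt1a8 and Ugt1a9.

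By gene, 541 of 8275 genes with a called site in mouse 1 (6.54%) and 522 of 8352 in mouse 2 (6.25%) had an intronic site. Of these genes, 297 and 275 had a single one, and 49 and 40 had 5 or more. In 116 and 98 genes every called site was intronic. The sites with the highest mean fold came from a mixed set of genes, with several interferon-inducible GTPases among them.

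Among all intronic sites the highest folds were 308 in mouse 1 and 318 in mouse 2, at nucleotides with another label in the other table. Intronic sites named below as strongest were ranked by mean log2 fold among those enriched in both mice and intronic in both tables. The leading one lay in Csrnp1, a nuclear protein whose gene is induced by axin, on chromosome 9 at 119972600. Its folds were 181 (mouse 1) and 169 (mouse 2). It lay 1437 bases before the RefSeq end of the gene and had exon-labelled sites on both sides. Csrnp1 had 22 and 25 called sites, of which 9 and 12 were intronic and 5 were intronic and enriched in both. The folds of those 5 were 180.5 and 169, 148 and 113, 79.98 and 121, 78.4 and 34.7, and 29.6 and 19.4. The strongest site outside introns in that gene, in coding sequence, had 128 and 125. A further 10 sites of Csrnp1 were intronic in 1 table only.

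Myadm, a membrane protein of myeloid cells, and Sys1, a Golgi membrane protein, carried the strongest sites with the ncRNA suffix. The site of Myadm on chromosome 7 at 3297177 had folds of 89.9 and 285, and a second site upstream, at 3297098, had 60.9 and 143. The site of Sys1 on chromosome 2 at 164464614 had folds of 135 and 188, while the strongest other site of that gene, in the 5' UTR, had 13.5 and 27.0. Cenpb carried sites with folds of 150.4 and 53.3, 71.7 and 82.9, and 64.2 and 78.0. The first of them lay 1326 bases after the RefSeq start of the gene and 1452 before its end. The strongest coding sequence site of Cenpb had 21.7 and 38.1. Another 12 sites of the gene bore an intron label in 1 table only, so the split between intronic and coding sites was not settled.

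The interferon-linked genes were led by Irf8, a transcription factor of monocyte and macrophage development. Its site on chromosome 8 at 120755263 had a fold of 106 in both mice, and its other intronic sites had 85.6 and 64.2, and 13.1 and 13.6. The strongest lay 1431 bases before the RefSeq end of the gene, and 6 further sites of the gene were intronic in 1 table only. Gbp5, an interferon-induced guanylate-binding protein, had 5 sites that were intronic in both tables and enriched in both mice, the strongest on chromosome 3 at 142519002 with 111 and 97.3 and the others between 9.03 and 22.7. Its relative Gbp4 had 4 enriched sites in both, all intronic, led by the one on chromosome 5 at 105123014 with 100.3 and 64.0. Ifi47 and Igtp, immunity-related GTPases, carried sites with 64.8 and 97.4, and with 75.9 and 82.6. Ifnar2, a subunit of the type I interferon receptor, had 6 intronic sites enriched in both mice within a stretch from 91404110 to 91405255 on chromosome 16. Their folds ran from 14.4 to 104 in mouse 1 and from 21.5 to 68.4 in mouse 2.

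Sfswap and Galnt2l had the most intronic sites enriched in both mice, 8 and 7. Sfswap is a splicing regulator that in Drosophila controls removal of introns from its own transcript. Its 9 sites with an intron label in both tables lay 579 to 1454 bases after the RefSeq start of a gene whose end is 68761 bases beyond the strongest of them. That site, on chromosome 5 at 129502623, had folds of 39.1 and 39.5, and the others ran from 8.02 to 33.1 in mouse 1 and from 6.26 to 32.7 in mouse 2. In contrast to the sites of Irf8, Csrnp1 and Ifnar2, no Sfswap site changed its label between the tables. Galnt2l differed again: all its called sites, 17 in mouse 1 and 15 in mouse 2, were intronic, and those shared ran from 120685358 to 122611636 on chromosome 8. The symbol has no gene span in the RefSeq table used here, and the strongest of these sites is the one near the start of Trappc2l shown above. Ugt1a7c had 6 sites enriched in both, led by 73.2 and 64.5 at 889 bases after its start, where other sites of the cluster had folds from 5.35 to 70.2 in mouse 1.

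Among genes whose sites enriched in both mice were all intronic, Acin1 had 5 between 10.5 and 25.1 in mouse 1 and between 11.1 and 31.8 in mouse 2. A sixth shared intronic site had 11.03 and 5.78. The strongest proximal sites were those of Zfp91, a zinc finger ubiquitin ligase (33.4 and 127), Evi2a, a small membrane protein gene that lies within an intron of Nf1 on the opposite strand (45.6 and 72.1), and Tulp4, a tubby-like protein (33.6 and 86.7). Each of these proximal sites was higher in mouse 2 than in mouse 1.

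**Figure D5:**
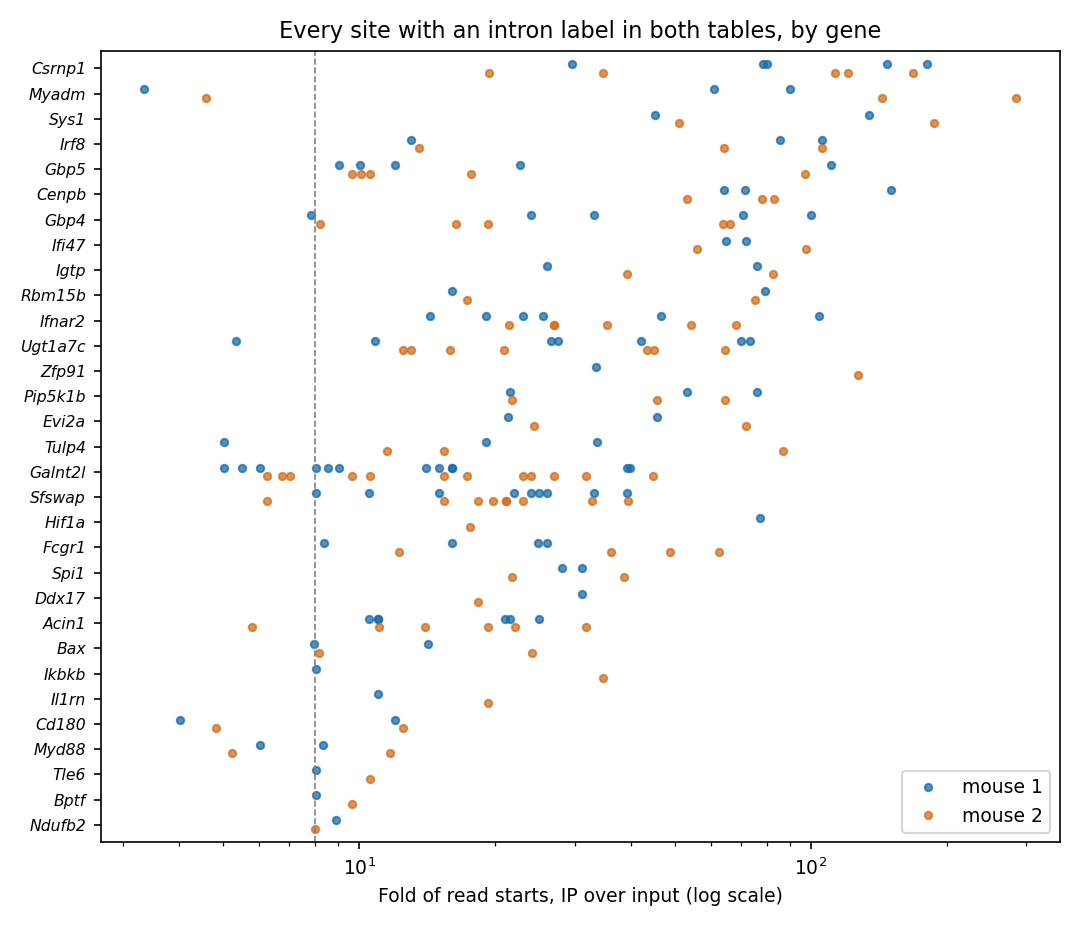
Fold of IP over input (horizontal axis, log scale) at every site with an intron label in both tables in the named genes, with mouse 1 in blue and mouse 2 in orange. The dashed line marks a fold of 8. Genes are ordered by their strongest site, from Csrnp1 (181 and 169) downward, and at the strongest site of Irf8 both mice stood at 106.

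Gene lists were read for how often their members carried intronic sites, with the same count over all genes beside them. By intronic share of called sites, the m6A machinery list stood highest in mouse 1 (8.19%) and the interferon response list in mouse 2 (5.24%). The former value rested on 14 of 171 sites (4.55% to 13.4%), 10 of them in Rbm15b, and in mouse 2 that list had 3.85% (7 of 182). By share of genes, the interferon response list stood highest. Of its 55 members with called sites in both mice, 14 had a site that was intronic in both tables (25.5%) and 10 had one enriched in both (18.2%), against 417 (5.33%) and 263 (3.36%) of 7827 genes. Members of that list also had more called sites, a median of 11 per gene in mouse 1 and 13 in mouse 2 against 4 for all genes. The intronic share of those sites was 5.47% in mouse 1 (4.004% to 7.28%) and 5.24% in mouse 2 (3.84% to 6.98%), against 2.57% and 2.41% of the sites of all genes. Besides Gbp5, Irf8 and Igtp, the members enriched in both mice included Rsad2, an antiviral radical SAM enzyme (87.2 and 20.7 at its strongest site), Oasl2, Parp14, Zbp1, Isg20 and Nlrc5. Daxx, Samhd1, Trim30a and Znfx1 had a shared intronic site that missed the limit in at least 1 mouse, for example Samhd1 with 4.26 and 5.20.

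In the Toll-like receptor and NF-kB list, which holds the LPS receptor pathway, 5 of 57 genes had a shared intronic site (8.77%, against 5.33% of all genes) and 4 had one enriched in both (7.02%, against 3.36%). These were Ikbkb, a kinase that releases NF-kB, with 8.02 and 34.7, Cd180, a Toll-like receptor homologue, with 12.03 and 12.5, Myd88, the main adaptor of these receptors, with 8.31 and 11.7, and Tnip3. Exonic sites of Cd180 reached 266 and 256, well above its intronic ones. The enriched intronic site of Cd180 lay outside the RefSeq span of the gene. The intronic share of the sites in this list, 1.99% and 2.40%, lay at or below that of all genes. Of 27 cytokine and chemokine genes 1 had an intronic site enriched in both mice (3.70%, near the 3.36% of all genes), which was Il1rn, the interleukin-1 receptor antagonist, with 11.03 and 19.3 at 32 bases before a RefSeq start of the gene. Of 32 immediate-early and inducible factors 1 had one (3.13%, also near that of all genes), which was Hif1a, the oxygen-regulated transcription factor, with 77.2 and 17.6.

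In the macrophage identity list 2 of 39 genes had such sites (5.13%, against 3.36% of all genes). Fcgr1, the high-affinity IgG receptor, had 4 proximal sites between 8.36 and 26.1 in mouse 1 and between 12.3 and 62.6 in mouse 2. Spi1, which encodes the myeloid master regulator PU.1, had a pair with 28.1 and 38.5, and 31.1 and 21.8. Among 23 genes of the m6A machinery 3 had a shared intronic site (13.0%, against 5.33% of all genes), namely Igf2bp2, Rbm15b and Ythdc1, and 1 had sites enriched in both (4.35%, against 3.36%). This was Rbm15b, an adaptor of the methyltransferase complex, with 79.2 and 75.1, and 16.05 and 17.3. Of its called sites 10 of 13 were intronic in mouse 1 and 4 of 12 in mouse 2, and 8 nucleotides were intronic in 1 table only. In the list of splicing factors and kinases known for retained or detained introns or poison exons, Acin1 and Ddx17, an RNA helicase, had them, 2 of 49 genes (4.08%), near the 3.36% of all genes. The site of Ddx17 had 31.1 and 18.3. Among chromatin regulators it was Bptf, 1 of 47 (2.13%). None of the 6 snoRNA host genes and long noncoding RNAs with called sites had an intronic one, out of 67 called sites in mouse 1 and 66 in mouse 2. The intervals of these shares reached up to 5.36% and 5.44%, and so included the 2.57% and 2.41% of sites over all genes.

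The cell type was checked through the same tables. Of 42 macrophage identity genes 39 had called sites in both mice, against 2 of 15 lymphocyte genes, 7 of 15 neutrophil and mast cell genes, 3 of 10 dendritic cell genes and 1 of 15 stromal, endothelial and erythroid genes. None of the genes of these other cell types carried an intronic site. Their called sites were few, at most 24 per list and mouse, where 2.57% and 2.41% of the sites of all genes were intronic. This absence is therefore near the share of all genes. A called site says that a transcript was present and not how abundant it was.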

How the data were processed

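Called sites of m6A-eCLIP were taken from 1 deposited table per mouse, not pooled. Per the submitters' processing notes, cutadapt 2.7, STAR 2.6.0c and UMI-tools 0.5.1 were used and mm10 and hg38 are named as builds. The site caller and the annotation behind the labels are not given in the sources. The deposited fold is a ratio of IP to input read starts made by the authors, per the file headers. The deposited score is a number the authors gave each site, with no definition in the headers, and no p-value or read number was used. A deposited interval's end was taken as its 1-based position.

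The members and gene lists were chosen with earlier results of these data known. Sites were matched between mice by strand and nucleotide. Joined or empty gene names were left out of counts per gene. Gene spans and starts came from RefSeq tables of GRCm38.p6, which shares the coordinates of mm10. Genes named were the 10 leading ones by mean log2 fold at a site enriched in both mice and intronic in both tables, the 5 with most such sites, the 3 strongest proximal and the 3 strongest ncRNA sites, up to 3 members per list, the 5 leading genes whose shared enriched sites were all intronic, and sites just inside and outside the limit. Predicted genes were counted only. Genes named for changed labels, second genes or printed sequences, and further list members, were chosen after their values were seen. Some sites these rules pick are counted and not named. Overlap, distance and neighbour steps were tested on simulated data. Python 3.11.15, pandas 2.3.3, NumPy 2.4.6, SciPy 1.17.1 and Matplotlib 3.10.9 were used. Alternatives are given in the closing section.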

Additional observations from a re-analysis of the deposited data

How the results depend on the processing

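Under all 10 alternatives run for each mouse, the enriched share was lower among intronic than among the other called sites. With the log2 limit raised to 4, 394 and 396 intronic sites passed in mouse 1 and mouse 2, with differences from the other sites of -13.4 and -11.5 percentage points, and 36.4% and 38.4% of distal and 28.5% and 24.4% of proximal sites passed. With the log2 limit at 1 the differences shrank to -1.02 and -0.256, since nearly every called site passed. Counting 1 site per gene, the strongest, 426 and 389 passed, the differences were -14.7 and -16.5, and 79.1% and 74.5% of distal sites passed. The strongest site was picked separately among intronic and among other sites, and a maximum over more sites passes more often. Of 541 and 522 genes with an intronic site, 297 and 275 had only 1, where genes had a median of 4 called sites. The wider gap under this alternative therefore cannot be read as a difference between labels. A score of at least 20 gave -4.62 in mouse 2. Leaving out sites whose label changed between the tables from the intronic side alone, where they were the more often enriched, gave -11.3 and -11.8, an alternative chosen after seeing the data. Intronic sites enriched in both mice numbered 184 with the log2 limit at 4, 641 with it at 1, and between 795 and 844 when only 1 mouse was used. Also chosen after seeing the data, a limit of 5 bases left 35 and 38 sites at gene starts, and a reach of 200 bases left 78 and 75 sites between exon-labelled ones. The consensus was found within 5 bases of 31.1% and 23.0% of sites in promoter windows. No paired analysis was possible because the tables hold no values per library, and IP and input of a mouse are already compared within the deposited fold. The share of intronic sites inside an annotated exon was not run, for lack of an exon annotation here. Without read numbers, depth limits what a fold near 8 can show, and a permutation test over 2 mice cannot go below a p of 0.5.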
